A study of Rattus norvegicus with 81 samples.

Results

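Elastic fibre and crosslinking genes were followed through the mammary gland of female Sprague-Dawley rats. The list held 10 genes, selected on measured values of these same arrays: earlier results, among them a lower Eln in OIL glands at postnatal day 63, were known when it was drawn up. They are Eln, Fbn1, Mfap4, Fbln1, Fbln5, Emilin1, Lox, Loxl1, Loxl2 and Fn1. A gene was measured by the transcript cluster that carried its symbol and no other in the platform annotation, and by the cluster with the highest mean level where there were several. By that rule 9 of the 10 genes had a value among 18166 named genes, each from 1 cluster, so the mean level decided nothing. Fbln5, a fibulin that tethers elastin to cells, had 2 clusters, both shared with the symbol of another gene, Trip11, and is not analysed here. The DEP and OIL table held 8 of the 10 genes among 6762, without Emilin1.

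The study asked what low oral doses of diethyl phthalate (DEP, a solvent and fragrance fixative), methyl paraben (MPB, a preservative) and triclosan (TCS, an antibacterial agent) do to the gland at different stages of its development. Control rats received the vehicle, olive oil (OIL), over the same days. Glands of PND (postnatal day) 21 had been exposed over GD (gestation day) 1-20 through the dosed dam, or over PND 1-20 through her milk. Glands of PND 42 had been exposed over PND 21-41, first through milk and then by gavage, glands of PND 63 by gavage over PND 42-62, and glands of PND 146 over PND 1-145. The rats of the last window, TCS and OIL alone, were mated and nursed a litter, and their glands were taken at the end of lactation. Groups held 5 arrays, except 4 for TCS after PND 1-20 and 3 for TCS after PND 21-41, TCS after PND 42-62, chronic TCS and chronic OIL. For the perinatal windows 1 female pup was taken from each litter, and nothing in the labels says whether the older rats shared litters, so the p-values measure the spread between these samples.

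An elastic fibre is a core of elastin laid on a scaffold of microfibrils. Fbn1 encodes fibrillin-1, the main protein of the microfibril, and Mfap4, Fbln1 and Emilin1 encode glycoproteins that sit on the microfibril or at its contact with elastin. Lox, Loxl1 and Loxl2 encode lysyl oxidases, copper enzymes that oxidise lysines of elastin and collagen so that the chains crosslink. Fn1 encodes fibronectin, the matrix on which fibrillin and collagen first assemble. Most elastin of a mammal is made around birth and during early growth and then turns over slowly. In the mammary gland these proteins lie in the connective tissue around ducts and in the fat pad, which is remodelled when ducts grow at puberty and when alveoli form and regress.

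The members moved together within groups, as described further on, and the promoter table held sequence for 3 of them, Fbn1, Fbln5 and Loxl1. In the windows of Fbn1 and Fbln5 an ATG lay at or close to the listed start, where the entry may begin at the coding sequence, and they are not shown. The 250 bases before the start of Loxl1 are shown as the promoter of an enzyme whose level followed the other members closely, from RefSeq on the build GRCr8, chr8:67612225-67612474, minus strand, 5′ to 3′. Capitals mark CAGAC on either strand, the box that SMAD proteins, which carry TGF beta signals, can bind.

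Loxl1: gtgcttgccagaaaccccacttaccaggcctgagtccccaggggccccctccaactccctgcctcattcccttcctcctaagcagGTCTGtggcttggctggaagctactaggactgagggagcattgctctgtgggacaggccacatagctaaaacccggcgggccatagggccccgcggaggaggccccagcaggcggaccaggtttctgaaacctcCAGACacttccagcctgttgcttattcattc

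The stretch held 2 copies of CAGAC, the first of them on the opposite strand. A copy was present in the same window of 42.9% of 33469 RefSeq promoters. No copy of the GC box GGGCGG, the CCAAT box, the TATA box TATAAA or the AP-1 motif TGANTCA was found there on either strand. These letters were present in 30.5%, 34%, 12.9% and 6.34% of promoters, in that order, and none of the motifs overlaps CAGAC. The genome build behind the array annotation is not given in the sources used here. No other coordinates are therefore printed.

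The values are log2 expression from 3 tables that had been normalized separately. One held the 55 MPB, TCS and OIL arrays of the short windows, another 40 DEP and OIL arrays, and the third the 6 chronic arrays, so that levels were compared only within a table. In the first table the correlation between 2 arrays ran from 0.9158 to 0.9947. Every sample carried a batch label of 1 or 2, with 3 and 2 arrays in the groups of 5. TCS after PND 1-20 held 3 and 1, and TCS after PND 21-41 and after PND 42-62 held 3 arrays of batch 1 alone. Within OIL groups batch 2 lay 0.52 below batch 1 for Fbln1, 0.51 below for Emilin1 and 0.38 above for Fbn1, so batch was a term of each fit of the short windows. The keratins Krt8 of luminal cells (6.70 to 9.97) and Krt14 of myoepithelial cells (6.71 to 10.62) and the fat cell hormone Adipoq (11.83 to 13.41) were measured in these arrays, and no detection call came with the values. Of all arrays, 11 were rich in skeletal muscle transcripts, with a score over 11 muscle genes more than 2 above the median array. In RNA of a whole gland, fewer cells of a type and less RNA per cell cannot be told apart.

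Across the 55 arrays the members ranged over 1.58 (Fn1) to 2.49 (Mfap4) on the log2 scale. The SD within groups was smallest for Fn1, 0.22, and largest for Mfap4, 0.45. For Fn1 the SD over all arrays was 0.42, and for Eln it was 0.51 against 0.29 within groups. For Emilin1 the SD was 0.30 within groups and 0.30 over all arrays, so its level spread as widely inside groups as over the whole set.

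**Figure D1:**
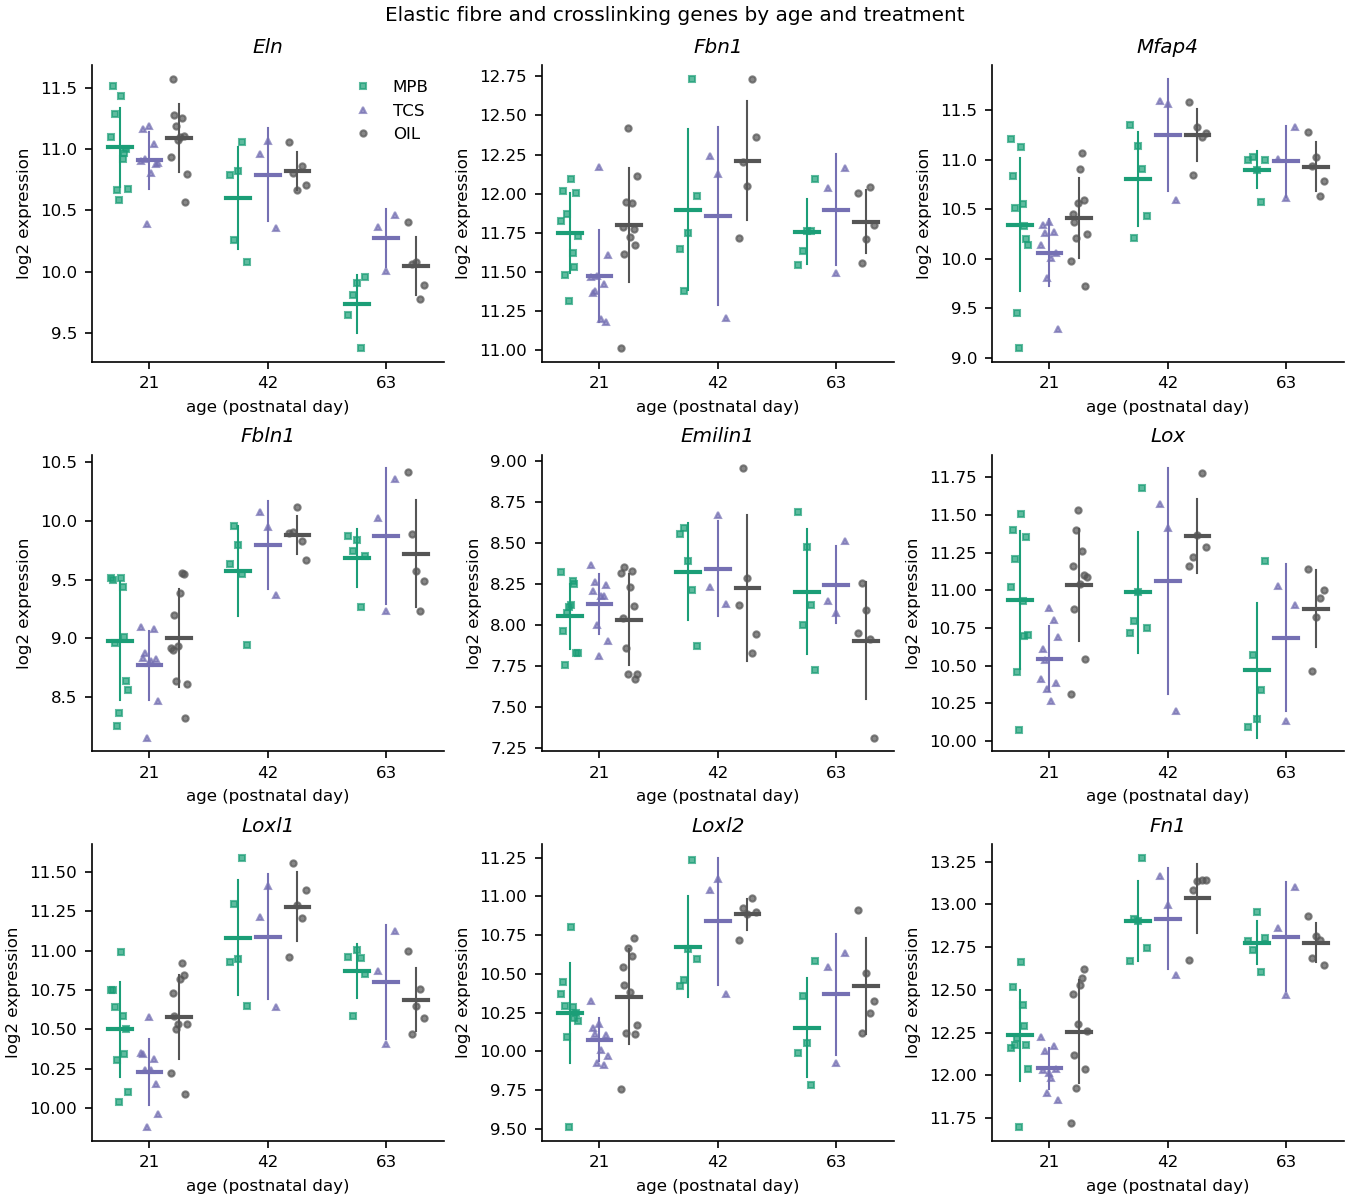
Log2 expression of each gene at 3 ages in MPB, TCS and OIL glands; each point is an array, horizontal bars are means and vertical bars are SD, and arrays of both perinatal windows are joined at PND 21. Eln averages 10.04 in OIL at PND 63 and 11.09 at PND 21, whereas Fn1 averages 12.78 and 12.26.

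The OIL glands show how the genes differed with age when no chemical was given. At PND 42 most members stood higher than at PND 21, and Eln did not. The glycoproteins Fbln1 and Mfap4, fibronectin and the crosslinking enzymes Loxl1 and Loxl2 rose. In limma 5 of 9 members passed, all 5 higher, where 22.4% of all genes passed, 12% higher and 10.5% lower. The median difference of the members was 0.53, against 0.009 for all genes.

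Fbln1 was at 9.89, 9.91, 10.12, 9.82 and 9.67 in the 5 OIL glands of PND 42. In the 10 OIL glands of PND 21 it ran from 8.32 through a median of 8.93 to 9.56, so that every older gland lay above every younger one. The difference was 0.88 ± 0.14 (SE, adjusted p = 0.00018), and the batches taken singly gave 0.72 (batch 1) and 1.12 (batch 2). Fn1 stood at 12.67, 13.08, 13.14, 13.14 and 13.14 at PND 42 against 11.72 to 12.62 (median 12.28) at PND 21. Here too the groups did not overlap, and the difference was 0.78 ± 0.12 (adjusted p = 0.00013), with 0.63 and 1.01 in the batches. Loxl1, the lysyl oxidase that acts mainly on elastin in mice, was at 10.96, 11.56, 11.29, 11.20 and 11.38 at PND 42 and ran from 10.09 to 10.92 (median 10.56) at PND 21. It was the remaining member whose groups stood apart, and rose by 0.70 ± 0.12 (adjusted p = 0.00048, 0.58 and 0.88 in the batches). How many of all genes stood apart was not counted.

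Mfap4 and Loxl2 overlapped slightly between the ages. Mfap4 was at 11.58, 10.85, 11.33, 11.23 and 11.27 at PND 42 and ran from 9.72 to 11.07 (median 10.41) at PND 21, a difference of 0.84 ± 0.16 (adjusted p = 0.00089). Loxl2, which crosslinks mostly collagens, was at 10.72, 10.93, 10.88, 10.99 and 10.90 at PND 42 and ran from 9.76 to 10.73 (median 10.41) at PND 21. It rose by 0.53 ± 0.14 (adjusted p = 0.012). With covariates for the muscle score and the B cell score Fbln1, Fn1 and Loxl1 passed, and Mfap4 (0.69, adjusted p = 0.059) and Loxl2 (0.34, adjusted p = 0.33) did not.

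Fibrillin-1 reached 12.21 ± 0.38 (SD, n = 5) at PND 42 and 11.80 ± 0.37 (n = 10) at PND 21, a difference of 0.41 ± 0.15 in Fbn1 with an unadjusted p of 0.011 and an adjusted p just over the threshold. Lox differed by 0.33 ± 0.16 (adjusted p = 0.16) and Emilin1 by 0.19 ± 0.12 (adjusted p = 0.26). Eln was the 1 member with a negative difference, -0.27 ± 0.10 (adjusted p = 0.066), at 10.82 ± 0.15 (n = 5) in OIL glands of PND 42 and 11.09 ± 0.28 (n = 10) in those of PND 21.

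At PND 63 against PND 42 every member had a negative difference in OIL, Eln as at the step before and the other 8 against a positive difference there. Eln, the elastin gene, was at 10.40, 10.07, 10.08, 9.78 and 9.89 in the 5 OIL glands of PND 63 and at 11.06, 10.80, 10.66, 10.86 and 10.71 in the 5 of PND 42. No older gland reached the lowest younger one. Eln fell by 0.77 ± 0.12 (adjusted p = 0.0081), by 0.66 in batch 1 and 0.95 in batch 2. It was the 1 member of 9 past the threshold, where 0.782% of genes passed, 0.429% higher and 0.352% lower. This fall was already known when the genes were chosen and is given as a description.

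All 9 differences were negative (median -0.39, against -0.007 for all genes), with 6 at an unadjusted p under 0.05, where 12.7% of all genes were. Lox was at 11.14, 10.47, 10.82, 10.95 and 11.00 at PND 63 and at 11.16, 11.22, 11.37, 11.78 and 11.29 at PND 42, so its groups stood apart as well, narrowly. How many of all genes stood apart at this step was not counted. The difference of Lox was -0.49 ± 0.19 (adjusted p = 0.26). Loxl1 differed by -0.59 ± 0.14 (adjusted p = 0.063) and had an adjusted p of 0.039 without the arrays rich in muscle transcripts and of 0.042 with the 2 scores as covariates. For the others the difference ran from -0.46 (Loxl2) to -0.16 (Fbln1).

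Over both steps, a contrast added after each step had been seen, OIL glands of PND 63 held less Eln and more Fbln1, Fn1 and Mfap4 than those of PND 21. In limma 4 of 9 members passed, 3 higher and 1 lower, where 26.8% of genes passed, 13.6% higher and 13.2% lower. Eln ran from 10.57 to 11.57 (median 11.10) at PND 21, above all 5 glands of PND 63, and fell by 1.04 ± 0.10 (adjusted p = 7.7e-07), by 1.03 and 1.07 in the batches. A lower Eln in these same OIL glands of PND 63 was known when the genes were chosen. Its fall is therefore a description here too. Fbln1 was higher by 0.72 ± 0.14 (adjusted p = 0.00072), Fn1 by 0.52 ± 0.12 (adjusted p = 0.0028) and Mfap4 by 0.52 ± 0.16 (adjusted p = 0.022). Fbn1, Loxl1, Loxl2, Lox and Emilin1 differed by -0.15 to 0.11, with adjusted p of 0.46 to 0.94.

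With the muscle and B cell covariates Eln and Fbln1 passed over both steps, while Fn1 (0.41, adjusted p = 0.059) and Mfap4 (0.50, adjusted p = 0.087) did not. At PND 42 against PND 21 of OIL Fbln1, Fn1, Loxl1, Loxl2 and Mfap4 passed without any 1 of the 15 arrays, and Mfap4 passed in 14 of 15 such fits over both steps.

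Rats given a chemical showed the same ages in separate arrays. The fits were made within each treatment and share no samples. Between PND 21 and PND 42 in DEP glands 4 of 8 members rose (35.7% of genes passed, 22% higher and 13.6% lower). They were Loxl1 (0.72 ± 0.16), Fn1 (0.70 ± 0.13), Mfap4 (0.70 ± 0.22) and Fbln1 (0.65 ± 0.21), with adjusted p of 0.00051 to 0.021. In MPB glands 3 of 9 rose (7.71% of genes passed, 3.53% higher and 4.18% lower), namely Fn1 (0.67 ± 0.12), Fbln1 (0.60 ± 0.13) and Loxl1 (0.58 ± 0.15). In TCS glands 5 of 9 rose (13.6% of genes passed, 8.87% higher and 4.71% lower), with Mfap4 at 1.07 ± 0.23, Fbln1 at 0.88 ± 0.22, Fn1 at 0.82 ± 0.14, Loxl1 at 0.81 ± 0.19 and Loxl2 at 0.74 ± 0.17. All 5 stood apart between the ages in TCS, with 3 arrays at PND 42 against 9 at PND 21. The share of all genes that did so was not counted. Overlap was read on levels without a batch term, and the 3 arrays of PND 42 were all of batch 1, while PND 21 held both batches. Only 1 of these members passed in TCS without TCS after PND 21-41 replicate 1 or 2, and 2 passed in DEP without DEP after PND 21-41 replicate 2 or 3. Eln differed by -0.31 ± 0.17 in DEP, -0.41 ± 0.16 in MPB and -0.16 ± 0.18 in TCS.

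Between PND 42 and PND 63 no member passed in these treatments, with 0.0887% of genes in DEP (0.0148% higher, 0.0739% lower), 0.308% in MPB (0.275% higher, 0.033% lower) and 0.0055% in TCS (0.0055% higher, 0% lower) past the threshold in limma. At an unadjusted p under 0.05 there were 4 members in DEP (10.5% of all genes), 2 in MPB (11.2%) and 2 in TCS (4.33%). Eln differed by -0.52 ± 0.19 in DEP (adjusted p = 0.39), -0.86 ± 0.19 in MPB (adjusted p = 0.055) and -0.52 ± 0.21 in TCS. In MPB it was at 9.64, 9.81, 9.91, 9.37 and 9.96 at PND 63 against 10.79, 10.26, 10.82, 11.06 and 10.08 at PND 42, and the groups did not overlap. The share of all genes without overlap was not counted. Leaving out MPB after PND 21-41 replicate 2 or MPB after PND 42-62 replicate 5 brought 1 member past the threshold.

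Eln was lower at PND 63 than at PND 21 in each treatment. It fell by 0.82 ± 0.17 in DEP (adjusted p = 0.0012), by 1.28 ± 0.16 in MPB (adjusted p = 3.4e-05) and by 0.68 ± 0.18 in TCS (adjusted p = 0.021). Fbln1 and Fn1 rose over the same span in all of them, Fbln1 by 0.61 ± 0.21 in DEP, 0.71 ± 0.13 in MPB and 0.95 ± 0.22 in TCS, and Fn1 by 0.59 ± 0.13, 0.54 ± 0.12 and 0.71 ± 0.14 in that order. Mfap4 rose by 0.80 ± 0.23 in TCS. When each array was left out in turn, Fbln1 passed in only 5 of 15 fits in DEP (adjusted p up to 0.097) and in 10 of 12 in TCS, and Mfap4 in 6 of 12 in TCS. In all, 3 of 8 members passed in DEP (29.1% of genes, 16% higher and 13.1% lower), 3 of 9 in MPB (18% of genes, 10.1% higher and 7.94% lower) and 4 of 9 in TCS (17.7% of genes, 10.6% higher and 7.17% lower). In TCS the count was 1 without TCS after PND 42-62 replicate 1 and 2 without replicate 3 of that group.

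**Figure D2:**
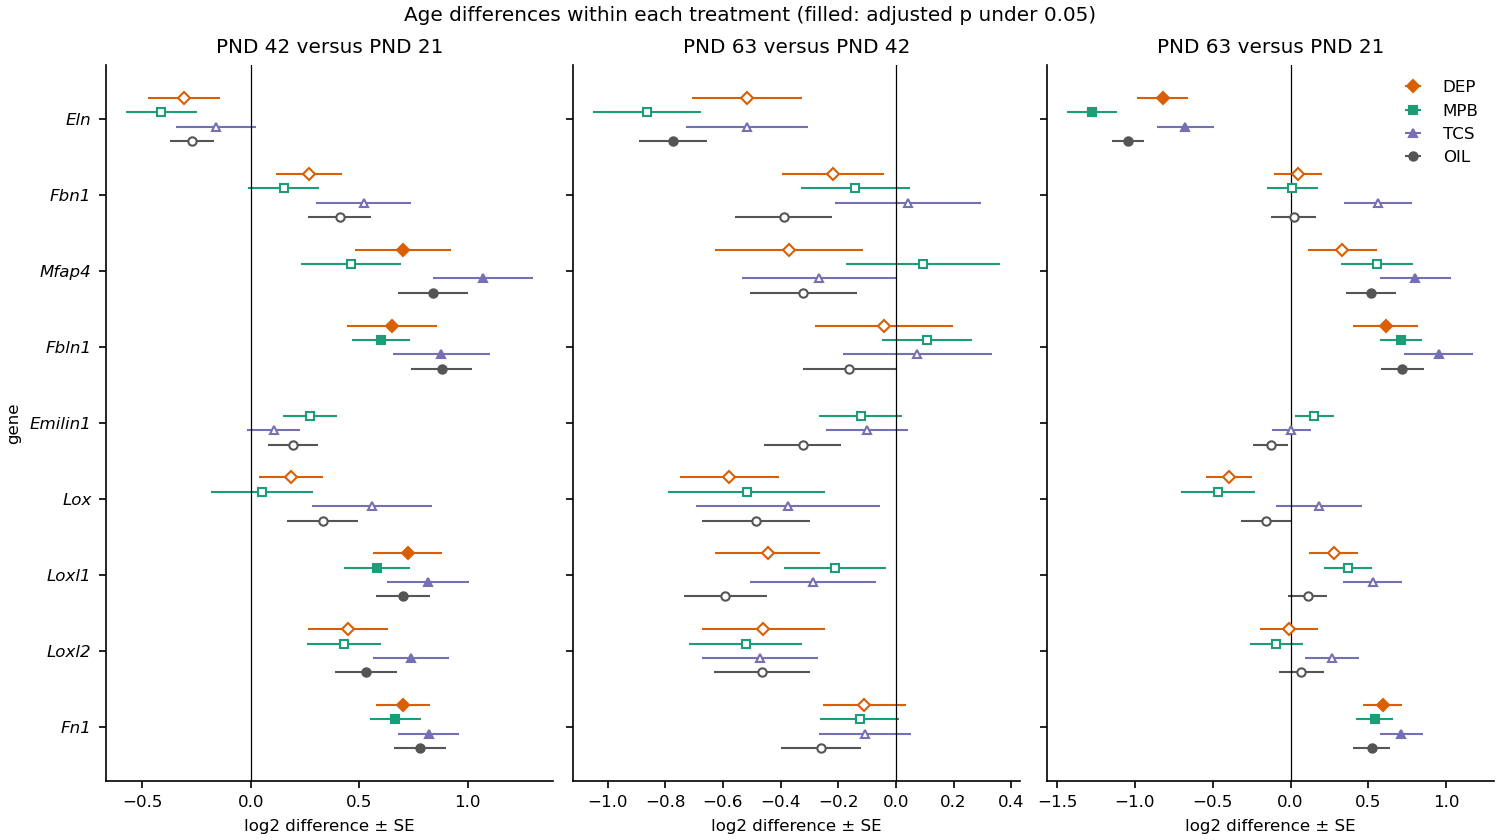
Log2 difference between 2 ages (± SE) for each gene in DEP, MPB, TCS and OIL glands, later age minus earlier age; filled points passed an adjusted p of 0.05. Eln lies left of 0 in all 3 panels, and in the right panel it is filled in all 4 treatments, at -0.82, -1.28, -0.68 and -1.04.

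The test of the difference itself, the age step in a chemical minus the same step in OIL, called no member. For PND 42 against PND 21 the share of genes called in limma was 0.0296% in DEP (0.0148% in either direction) and 0% in MPB and TCS, and for PND 63 against PND 42 it was 0% in DEP and TCS and 0.0055% in MPB (0.0055% higher, 0% lower). No member had an unadjusted p under 0.05 in any of these 6 tests, where 1.07% to 7.53% of all genes did. For Eln the 6 differences of differences ran from -0.14 ± 0.20 to 0.27 ± 0.24. The intervals are wide, and these 6 tests share the OIL arrays within a table.

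Levels of Eln in the first table followed age in each treatment. At PND 63 it averaged 9.74 ± 0.24 in MPB (SD, n = 5), 10.28 ± 0.24 in TCS (n = 3) and 10.04 ± 0.24 in OIL (n = 5). At PND 42 the means were 10.60 ± 0.41 in MPB, 10.79 ± 0.38 in TCS and 10.82 ± 0.15 in OIL. After PND 1-20 they were 11.00 ± 0.28 in MPB, 10.90 ± 0.10 in TCS and 10.97 ± 0.28 in OIL, and after GD 1-20 they were 11.03 ± 0.40, 10.91 ± 0.32 and 11.21 ± 0.24 in that order. No difference of Eln from OIL passed the test in any of these windows, as given further on. In the DEP and OIL table Eln averaged 10.81 ± 0.39 and 11.11 ± 0.25 after GD 1-20, 10.99 ± 0.13 and 10.89 ± 0.22 after PND 1-20, 10.59 ± 0.21 and 10.73 ± 0.15 after PND 21-41, and 10.07 ± 0.42 and 9.94 ± 0.21 after PND 42-62, DEP before OIL (n = 5 each).

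Between glands of 1 group Eln went with the other members. Between ages of OIL it differed in the opposite direction to the other 8 at PND 42 against PND 21. At PND 63 against PND 42 it differed in the same direction as they did. The correlation of Eln with the mean of the other 8 was 0.03 over the 55 arrays and 0.82 after the group means had been removed. By age it was 0.77 over the 29 arrays of PND 21, 0.78 over the 13 of PND 42 and 0.72 over the 13 of PND 63. The arrays share tissue, platform and normalization, and these values are descriptions without a test. Eln minus the mean of the others, a difference between probes whose zero has no meaning, ran from 0.41 to 1.06 in arrays of PND 21, from -0.44 to 0.20 in those of PND 42 and from -1.05 to -0.29 in those of PND 63. The first of these ranges does not meet the next, whereas the ranges of PND 42 and PND 63 overlap. In the DEP and OIL table the arrays of PND 21 ran from -0.74 to 0.67 and did meet those of PND 42 (-0.88 to -0.25). The lowest of them, DEP after GD 1-20 replicate 3, had an Eln of 10.23 and the highest muscle score of that table, 5.48.

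**Figure D3:**
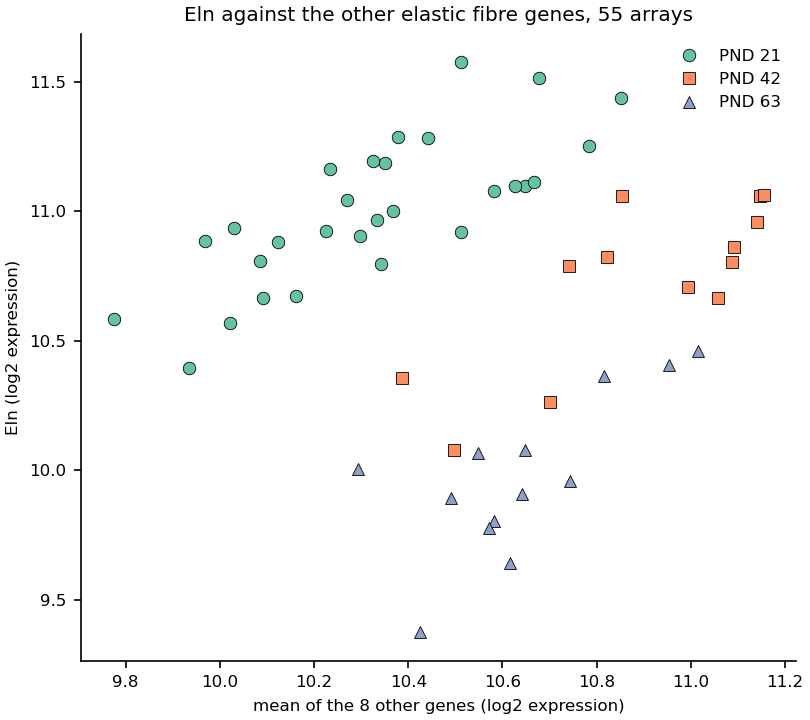
Eln against the mean of the other 8 genes (both log2 expression) in the 55 MPB, TCS and OIL arrays, marked by age. Within each age the points rise together (r of 0.77, 0.78 and 0.72), and the arrays of PND 63 lie below those of PND 21 at the same mean of the others.

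Most pairs of members kept together across the arrays. Pairs with Eln did so within groups, with r from 0.18 (Emilin1) to 0.78 (Mfap4). Over the 55 arrays the pairs with Eln ran from -0.30 (Fn1) to 0.49 (Lox). Of the 36 pairs of members, 30 had a positive correlation over 55 arrays (median 0.49, from -0.30 to 0.89) and 33 within groups (median 0.63). Loxl2 and Loxl1 followed the mean of the other members most closely (0.89 for each, and 0.83 and 0.85 within groups). Emilin1, the glycoprotein that lies between elastin and the microfibril, followed that mean least within groups (0.12). Over all arrays it had 0.22, and Eln alone was lower, at 0.03.

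Among all other genes, those most like the mean of the members over the 55 arrays were Col6a2 (r = 0.90), a chain of the microfibrillar collagen VI, Tmem45a (0.90), Ppic (0.89), a cyclophilin, Creb3l1 (0.88), a transcription factor of collagen secretion, Htra1 (0.88), a secreted protease, and Cpz (0.87), a carboxypeptidase. Lrp1 (0.87), Fstl1 (0.87), Olfml3 (0.86) and Bmp1 (0.86), the protease that trims procollagen and lysyl oxidase, came next. Least like it were Pou2f1 (-0.78), Map3k7 (-0.78), Bcap29 (-0.77), Akap8 (-0.77) and Satb1 (-0.77), a chromatin organiser of lymphocytes. The members' score, the mean of their log2 values after centring, had an r of 0.90 with that of 11 fibroblast markers (0.93 within groups). With B cell and lymph node markers it was -0.62 (-0.55 within groups), with skeletal muscle markers 0.21 (0.38) and with luminal markers 0.52 (0.13). Whether the share of fibroblasts or lymph node in a gland set these relations was not tested.

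Other genes of the elastic fibre and its crosslinks were read as a list of 46, 41 of them measured. In OIL glands at PND 42 against PND 21, 15 of the 41 rose and 2 fell, with a median of 0.18, where 12% of all genes rose and 10.5% fell. Efemp1 (fibulin-3) was higher by 0.79 ± 0.21 (adjusted p = 0.0091), Bmp1 by 0.60 ± 0.09 (adjusted p = 0.00015) and Efemp2 (fibulin-4), which brings lysyl oxidase to tropoelastin, by 0.45 ± 0.11 (adjusted p = 0.004). Ltbp3, which holds latent TGF beta in the matrix, was higher by 0.51 ± 0.08. The 2 that fell were Plod2, a lysyl hydroxylase of collagen, by 0.73 ± 0.12 (adjusted p = 0.00018), and Mmrn2, an EMILIN relative of vessel walls, by 0.23 ± 0.08.

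At PND 63 against PND 42 of OIL, 1 of the 41 rose and 2 fell (median -0.11), where 0.429% of all genes rose and 0.352% fell. Tll1, a protease related to Bmp1, rose by 1.16 ± 0.25 (adjusted p = 0.038), while Itga5, a chain of the fibronectin receptor, fell by 0.62 ± 0.12 and Thsd4, which binds fibrillin, by 0.55 ± 0.11. Of 12 measured fibrillar and microfibrillar collagens 4 fell at that step (median -0.38), Col5a3 by 0.82 ± 0.16, Col6a3 by 0.68 ± 0.14, Col5a1 by 0.62 ± 0.12 and Col6a2 by 0.51 ± 0.10, after 5 of the 12 had risen at the step before (median 0.31).

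Ltbp4, which guides elastin onto the microfibril and was singled out after its values were seen, was lower at PND 63 than at PND 21 in each treatment. The differences were -0.48 ± 0.14 in DEP, -0.50 ± 0.10 in MPB, -0.43 ± 0.12 in TCS and -0.44 ± 0.08 in OIL, and all of them passed (adjusted p = 0.00028 to 0.026). Plod2 differed by -0.88 in DEP, -1.03 in MPB, -0.81 in TCS and -1.25 in OIL and passed in each. Pcolce, the enhancer of procollagen trimming, differed by -0.84 in DEP, -1.05 in MPB, -0.73 in TCS and -0.82 in OIL and passed in each as well. Over this span 12 of the 41 listed genes rose and 8 fell in OIL, with a median of -0.02, where 13.6% of all genes rose and 13.2% fell.

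Among proteases that cut elastin, Mmp12, the macrophage elastase, was higher at PND 63 than at PND 21 by 2.54 ± 0.30 in DEP, 3.09 ± 0.21 in MPB, 2.56 ± 0.21 in TCS and 2.70 ± 0.21 in OIL, with adjusted p of 5.6e-08 to 1.9e-05. At PND 42 against PND 21 of OIL it was higher by 1.96 ± 0.21 (adjusted p = 6.3e-06). At that step Ctsk, cathepsin K, rose by 1.06 ± 0.15, Mmp14 by 1.05 ± 0.11 and Mmp2 by 0.60 ± 0.11, whereas Mmp9 fell by 1.03 ± 0.28 and Mmp7 by 0.38, which made 4 of 12 measured proteases higher and 2 lower. Of 10 macrophage markers 2 rose there (median 0.17), where 12% of all genes did, and 3 rose over both steps (median 0.31), where 13.6% did, both close to the background for a list this short. Their part in the rise of Mmp12 was not tested.

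TGF beta genes, known inducers of elastin and lysyl oxidase, went both ways. Tgfb3 rose at PND 42 of OIL by 1.40 ± 0.19 (adjusted p = 3.7e-05) and the mediator Smad3 by 0.41 ± 0.08, while Tgfb1 fell by 0.44 ± 0.15, the inhibitor Smad7 by 0.42 and Smad2 by 0.23. The list of 14, of which 10 were measured, had a median of -0.21.

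Cell type markers differed at these ages too. At PND 42 against PND 21 of OIL, where 12% of all genes rose and 10.5% fell, 13 of 14 luminal markers rose (median 1.47), 6 of 7 basal markers rose (1.30), 10 of 11 adipocyte markers fell (-0.64), 6 of 8 endothelial markers fell (-0.36) and all 8 B cell markers fell (-1.41). Of 11 fibroblast markers 4 rose and 1 fell (0.18). At PND 63 against PND 42, where 0.782% of all genes passed, the median difference was -0.07 over the fibroblast markers, 0.05 over 8 smooth muscle, -0.05 over 8 endothelial and -0.98 over 11 skeletal muscle markers. The fibroblast score ran from -0.17 to 0.29 (median 0.10) in the glands of PND 63 and from 0.07 to 0.35 (median 0.17) in those of PND 42. The smooth muscle score ran from -0.22 to 0.23 (median 0.07) and from -0.34 to 0.29 (median 0.08) in that order. Of these lists the part in the age differences of the members was not tested, apart from the covariates for muscle and B cells.

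Against OIL of the same window, no member passed in any of the 13 comparisons with a chemical in limma. The share of all genes past the threshold was 0.0148% in DEP after PND 21-41 (0% higher, 0.0148% lower), 0.0055% in MPB after GD 1-20, MPB after PND 42-62 and TCS after GD 1-20 (0% higher, 0.0055% lower in each) and 0% in the other 9. At an unadjusted p under 0.05 there were 6 members in TCS after PND 1-20, beside 6.25% of all genes, and 5 in chronic TCS (12.9% of all genes). There was 1 member in MPB after PND 42-62 (17.8%), 1 in TCS after GD 1-20 (6.8%) and 0 in the others (1.67% to 14.7%). The chemicals of a window share their OIL arrays within a table, so the comparisons are not independent of each other.

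**Figure D4:**
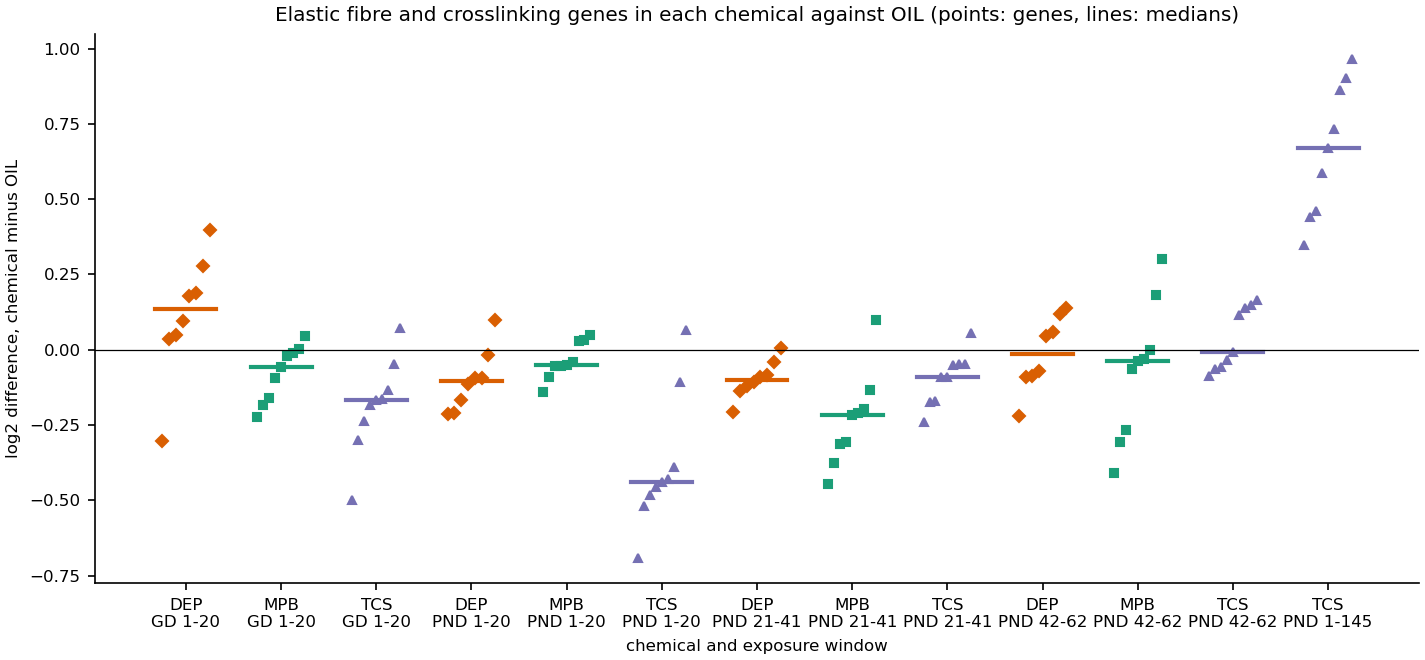
Log2 difference of each gene, chemical minus OIL, in the 13 comparisons in order of exposure window; points are genes and lines are medians. The genes of TCS after PND 1-20 lie mostly below 0 (median -0.44) and those of chronic TCS all above 0 (median 0.67), and no gene passed an adjusted p of 0.05.

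TCS after PND 1-20 had the lowest median difference from OIL among the short windows. Of 9 members 8 were below OIL, with a median of -0.44 against -0.015 for all genes. Fbn1 was at 11.20, 11.42, 11.18 and 11.61 in the 4 TCS glands and at 11.73, 11.94, 11.77, 11.67 and 12.12 in the 5 OIL glands, which do not overlap (-0.46 ± 0.19, adjusted p = 0.76). Loxl2 was at 10.01, 9.91, 10.10 and 9.97 in TCS and at 10.39, 10.61, 10.73, 10.11 and 10.17 in OIL, narrowly apart (-0.44 ± 0.17, adjusted p = 0.76). In the other members the groups overlapped. How many of all genes stood apart between these 4 and 5 glands was not counted. The printed levels carry no batch term, and batch 2 held 1 of the TCS glands and 2 of the OIL glands.

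Of these others Mfap4 differed by -0.69 ± 0.25, Loxl1 by -0.52 ± 0.15, Lox by -0.48 ± 0.25, Fn1 by -0.43 ± 0.13 and Fbln1 by -0.39 ± 0.17. Eln (-0.11 ± 0.16) and Emilin1 (0.07 ± 0.11) lay nearest to 0. The median was -0.57 in batch 1 and -0.32 with both scores (muscle, B cell) in the model, and batch 2 held 1 TCS array. In the same comparison fibroblast markers had a median of -0.29 (10 of 11 negative), collagens -0.33, luminal markers -0.80 (14 of 14 negative), basal markers -0.55 and B cell markers 0.89 (8 of 8 positive), with none past the threshold. The B cell score ran from 0.97 to 1.45 in the TCS glands and from -1.52 to 1.27 in the OIL glands. It entered the model only together with the muscle score, and its part by itself was not tested.

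Chronic TCS stood on the other side. At PND 146 all 9 members were above OIL, by 0.35 to 0.97 (median 0.67, against 0.012 for all genes), and 0% of genes passed, with 2350 at an unadjusted p under 0.05. Eln was at 7.60, 7.24 and 7.89 in the 3 TCS glands and at 6.57, 6.75 and 6.70 in the 3 OIL glands, a difference of 0.90 ± 0.18 (adjusted p = 0.30). Mfap4 was at 9.25, 8.64 and 9.13 in TCS and at 8.04, 8.40 and 7.68 in OIL, a difference of 0.97 ± 0.22 (adjusted p = 0.30). Emilin1 stood at 6.55, 6.27 and 6.46 in TCS against 6.10, 6.10 and 6.04 in OIL (0.35 ± 0.12). In these members, and in Loxl2 and Fbn1, every TCS gland lay above every OIL gland, in Fbn1 by less than the rounding of the printed values. How many of all genes stood apart between these 3 and 3 glands was not counted, so the 5 of 9 members have no background.

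Replicate 3 of chronic TCS was the highest gland for 7 of the 9 members. Loxl2 was at 6.99, 6.84 and 8.06 in TCS and at 6.44, 6.55 and 6.32 in OIL (0.86 ± 0.30). Fbn1 was at 8.94, 8.95 and 10.11 in TCS and at 8.94, 8.84 and 8.84 in OIL (0.46 ± 0.30). Without replicate 3 the median of the members was 0.33, with Eln at 0.74 and Fbn1 at 0.07, and with both scores in the model it was 0.37. Fn1 (0.67 ± 0.35), Fbln1 (0.73 ± 0.25), Loxl1 (0.59 ± 0.27) and Lox (0.44 ± 0.26) overlapped between the groups.

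Other lists went along with the members in the chronic window, again with 0 genes past the threshold in limma. The median was 0.36 over the other elastic fibre genes (32 of 41 positive), 0.53 over collagens (10 of 12), 0.52 over fibroblast markers (10 of 11), 0.74 over adipocyte markers (10 of 11), 0.56 over macrophage markers (9 of 10) and 0.46 over endothelial markers (7 of 8), and it was -0.41 over luminal markers (5 of 14 positive) and -0.93 over skeletal muscle markers (0 of 11). The fibroblast score ran from -0.11 to 0.52 (median 0.24) in TCS and from -0.37 to -0.10 (median -0.18) in OIL. For adipocytes it ran from -0.03 to 0.98 (median 0.15) in TCS and from -0.43 to -0.32 (median -0.33) in OIL. Their part in the result was not tested, apart from the covariates for muscle and B cells.

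**Figure D5:**
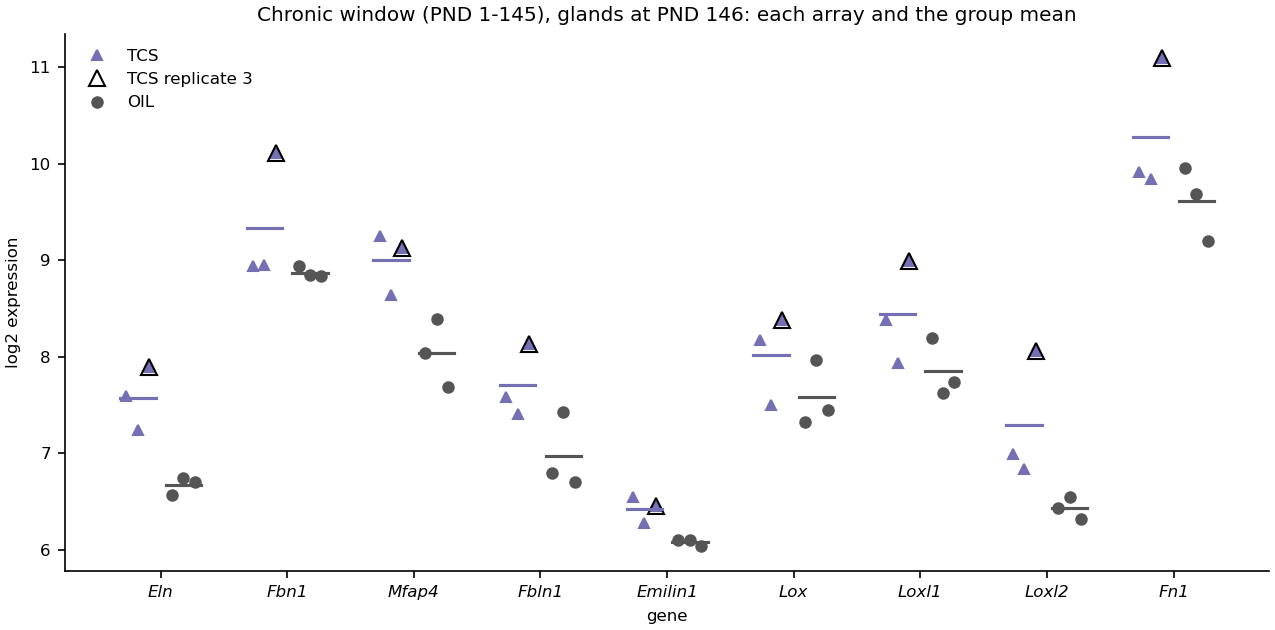
Log2 expression of the 9 genes in each of the 3 chronic TCS and 3 chronic OIL glands at PND 146; bars are group means and the ringed points are TCS replicate 3. Eln is at 7.24 to 7.89 in TCS and 6.57 to 6.75 in OIL, and for Fbn1 the TCS mean is carried by the ringed gland at 10.11.

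In the remaining windows the median of the members lay between -0.22 and 0.14, and single members lay further from OIL. After GD 1-20 the median was 0.14 in DEP (7 of 8 positive), -0.06 in MPB (2 of 9) and -0.17 in TCS (1 of 9), with Lox lowest in TCS at -0.50 ± 0.23 and Mfap4 highest in DEP at 0.40 ± 0.27. In MPB this median was 0.20 in batch 1 and -0.51 in batch 2. After PND 1-20 it was -0.10 in DEP (1 of 8 positive), with -0.38 in batch 1 and 0.30 in batch 2, and -0.05 in MPB (3 of 9). After PND 21-41 it was -0.10 in DEP (1 of 8), -0.22 in MPB (1 of 9) and -0.09 in TCS (1 of 9, and 0.17 without TCS replicate 3).

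MPB after PND 21-41 had Mfap4 at -0.45 ± 0.25, Lox at -0.38 ± 0.24, Fbn1 at -0.31 ± 0.21 and Fbln1 at -0.31 ± 0.15 (adjusted p = 0.51 to 0.58), and Emilin1 at 0.10 ± 0.16. B cell markers had a median of 1.14 there and luminal markers of -0.41, and their part was not tested, apart from the covariates for muscle and B cells. After PND 42-62 the medians were -0.01 in DEP (4 of 8 positive), -0.04 in MPB (3 of 9) and -0.01 in TCS (4 of 9). Eln averaged 9.74 ± 0.24 in MPB and 10.04 ± 0.24 in OIL, a difference of -0.31 ± 0.13 (adjusted p = 0.24), and Lox differed by -0.41 ± 0.21 (adjusted p = 0.32).

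The 2 perinatal OIL groups, killed at the same age, gave 0 of 9 members past the threshold, with 0% of genes called in limma. At an unadjusted p under 0.05 there was 1 member, Fn1, beside 8.54% of all genes. The median of the members, GD 1-20 minus PND 1-20, was -0.10. Fn1 stood at 12.11 ± 0.30 after GD 1-20 and 12.40 ± 0.25 after PND 1-20 (SD, n = 5 each), a difference of -0.30 ± 0.14, and Eln at 11.21 ± 0.24 and 10.97 ± 0.28, a difference of 0.25 ± 0.12 (adjusted p = 0.59).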

How the data were processed

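Total RNA of the caudal mammary gland was hybridised to Affymetrix arrays. The authors deposited log2 values per transcript cluster, made with RMA in Affymetrix Expression Console, per the submitters' processing notes. No version or genome build was given in the sources used here. DEP arrays had the same values in both deposited tables that hold them (to 1.78e-15), whereas OIL values differed, DEP and OIL table minus value table, by -0.115 on average (SD 0.199). The SD over clusters of the batch difference in OIL was 0.169 in the DEP and OIL table and 0.401 in the other. Over all arrays of each table it was 0.0231 and 0.383 in that order. An adjustment for batch before deposit is stated nowhere in the labels and was not tested, so DEP was compared with OIL only within its own table. The batch term and the single-batch values of DEP rest on these deposited values.

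Linear models (lmFit, then eBayes, of limma 3.58.1, run under R 4.3.3) covered all named genes with no filter on low values. Batch was a covariate for the short windows, and the chronic arrays were all of batch 1. Tests were 2-sided, adjusted by Benjamini-Hochberg over all genes, with a threshold of 0.05. The chemical fits held all groups of an age, the age fits those of 1 treatment, and the tests of a difference between age steps all short-window arrays of a table. The number of arrays limited the precision. Overlap between groups was read for the members alone, without a count over all genes. Plots came from matplotlib 3.10.9 (Python 3.11.15). Genes named are the members, up to 10 genes a list past the threshold by size, and the 10 genes most correlated with the members. Mmrn2, Ltbp4 and the 5 least correlated genes were named after their values were seen. Members and lists were chosen with earlier results of these data known. Alternatives covered no batch term, each batch alone, all clusters of a gene, eBayes with trend and robust, a mean log2 minimum of 6, muscle and B cell covariates, muscle-rich arrays, other deposited tables and leaving out each array.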

Additional observations from a re-analysis of the deposited data

Results flagged for a closer look

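In groups of 4 to 10 arrays, a gene's highest or lowest array was set against the others by Dixon's test. It stood apart in 9 of 122 sets of gene and group, where chance gives about 1 in 20. Eln was 10.9453 in DEP after PND 21-41 replicate 3, above the other arrays of its group at 10.43 to 10.56. Fbn1 was 12.1713 in TCS after GD 1-20 replicate 5 and Fbln1 was 9.2666, low, in MPB after PND 42-62 replicate 4. Lox was 10.415, low, in DEP after GD 1-20 replicate 1, and high at 10.976 in DEP after PND 42-62 replicate 4 and at 11.6793 in MPB after PND 21-41 replicate 4. Loxl1 was 10.6677 in DEP after PND 1-20 replicate 5, Loxl2 was 10.8 in MPB after PND 1-20 replicate 1, and Fn1 was 12.6729, low, in OIL after PND 21-41 replicate 1. Of these 9 arrays 6 were among the 11 rich in muscle transcripts, and the part of muscle in these values was not tested.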

How the results depend on the processing

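No difference of a member past the threshold reversed its direction under the alternatives run. The number of members past the threshold changed by more than 1.5 times under the settings given here, and the cause was not tested. For OIL at PND 42 against PND 21 it was 3 with the muscle score and the B cell score as covariates, against 5. For OIL at PND 63 against PND 42 it was 0 in batch 1 alone and 0 in batch 2 alone, which hold fewer arrays, and 2 with the covariates or without muscle-rich arrays, against 1. For OIL at PND 63 against PND 21 it was 2 with the covariates, against 4. In DEP it was 0 in batch 2 alone and 2 with the covariates at PND 42 against PND 21, against 4, and 0 in batch 2 alone at PND 63 against PND 21, against 3. In MPB it was 1 in batch 1 alone, 0 in batch 2 alone and 5 with the covariates at PND 42 against PND 21, against 3, and 5 with the covariates or without muscle-rich arrays at PND 63 against PND 21, against 3. Leaving out 1 array gave counts of 5 to 6, 1 to 2 and 3 to 4 in OIL for PND 42 against 21, PND 63 against 42 and PND 63 against 21. In the same order they were 2 to 5, 0 to 0 and 2 to 4 in DEP, 2 to 3, 0 to 1 and 3 to 4 in MPB, and 1 to 7, 0 to 0 and 1 to 5 in TCS. In the 13 comparisons with a chemical, the 6 differences of age steps and the 2 OIL groups of PND 21 the count stayed at 0 under every alternative that could be run. No paired analysis was possible because animal numbers differ between the groups compared. The contrast of PND 63 with PND 21 was added after the data had been seen. The number of arrays, 3 to 5 a group, limited what could be detected, and signal over background was not given.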
